A study of Homo sapiens with 8 samples.

Results

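The ubiquitin-specific proteases are described here in HCT116, an established human colorectal carcinoma cell line, with and without the bacterium Fusobacterium nucleatum. Members were all genes whose symbol begins with USP and a digit, in the expression table or in the gene name given to an m6A peak. This rule found 82 symbols, of which 77 were among the 19475 entries of the expression table and 5 appeared only in the peak lists. They comprised 51 ubiquitin-specific proteases, 25 near-identical USP17-like copies, USP6NL (a RAB5 GTPase-activating protein that is no protease), 4 antisense or divergent noncoding genes and the pseudogene USP32P3. Cells received PBS (Control) or F. nucleatum for 2 h at a multiplicity of infection of 100, with no genetic change in either group. Polyadenylated RNA was fragmented and sequenced before (input) and after (IP) pull-down with an m6A antibody. There were 8 samples, with 2 input and 2 IP libraries for each treatment. The cells were of 1 cell line, and each treatment was tested at 1 time and 1 dose.

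Ubiquitin-specific proteases remove ubiquitin, the small protein that marks other proteins for degradation by the proteasome, for sorting or for signalling. Each trims the marks on its own substrates, so the family as a whole bears on protein turnover, chromatin, DNA repair, membrane traffic and inflammatory signalling. N6-methyladenosine (m6A) is a methyl mark on adenosines of mRNA, placed mostly within the sequence RRACH, of which GGAC is a frequent form, and found above all near stop codons and in long internal exons.

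Several of the family's m6A regions are shown first as sequence. Each line gives 21 nt of the RNA strand, written as DNA and taken from the GRCh37 genome (hg19), around the A of the GGAC nearest the middle of a region, with GGAC in capitals. A peak does not resolve the methylated base, so the capitals mark a motif within the region and not a measured site. The first 3 are shown because the motif lay within 20 nt of a stop codon, the next 5 because their regions were among the strongest of the family, the next 2 because their regions were found in 1 treatment only, the next 2 because their genes had the largest expression differences, and the last 2 because they compare a gene with its pseudogene.
USP12: cagtctcgGGACtgagaggga
USP4: tgcagcatGGACaccaactaa
USP46: gacctgcgGGACtgattcacg
USP10: gtggtcttGGACaaagggagc
USP3: gctataatGGACatcaggttg
USP22: gaccacacGGACggggaggct
USP34: ccctcccaGGACcctgaggtt
USP1: atggttgtGGACttgaatctc
USP11: aagagaacGGACggcgatggc
USP15: ataccaaaGGACgtaatagct
USP53: gaacgtggGGACtgtacctcc
USP6NL: tagccctgGGACtcaactgaa
USP32: actcctcaGGACcatgaggta
USP32P3: actcctcaGGACcacgaggta

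On the canonical transcripts of GENCODE 44, the A of the shown GGAC lay in the coding sequence (CDS) at -2 nt from the first base of the stop codon in USP12 (chr13:27643414-27643434, minus strand) and at -8 nt in USP4 (chr3:49315726-49315746, minus strand). In USP46 it lay 19 nt into the 3′UTR side of the stop codon (chr4:53463779-53463799, minus strand). The USP3 and USP22 windows were in the 3′UTR, 419 nt (chr15:63883432-63883452, plus strand) and 183 nt (chr17:20906153-20906173, minus strand) past the first base of the stop codon. The USP34 window (chr2:61415384-61415404, minus strand) and the USP1 window (chr1:62911026-62911046, plus strand) were in the CDS, at -155 and -1171 nt. The USP53 window (chr4:120194818-120194838, plus strand) and the USP6NL window (chr10:11504933-11504953, minus strand) were also in the CDS, at -1004 and -501 nt. The USP10 window lay at chr16:84778512-84778532 on the plus strand. The USP32 window (chr17:58258835-58258855, minus strand) and that of the pseudogene USP32P3 (chr17:20332080-20332100, plus strand) had 20 of 21 bases in common, and differed by T15C, with USP32 first and positions counted from 1 at the 5′ end.

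Expression was measured as FPKM (fragments scaled to transcript length and to the total mapped) in the 4 input libraries. Taking the Control 1 input as 1, Control 2 had an estimated depth of 1.11, F. nucleatum 1 of 1.23 and F. nucleatum 2 of 0.909. Absolute depths were unknown for these libraries, and so was any depth of the IP ones. Of 9 markers of colon epithelium, EPCAM, KRT8, KRT18, KRT19, CDH1, CLDN7 and CDX2 passed the filter on low values, and VIL1 and LGALS4 were at or below 0.251 FPKM in each library. Of 9 markers of other cell types, 8 were under 0.3 FPKM in each library, and COL1A1 was at 4.51 and 3.78 FPKM in Control and 5.72 and 5.05 FPKM with F. nucleatum.

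The filter on low values, a mean FPKM of 1 or more in the input libraries, was passed by 43 members, 42 of them proteases and the other USP6NL. The 9 proteases below it were USP2, USP6, USP9Y, USP26, USP29, USP44, USP49, USP50 and USP51, of which USP29 and USP51 were listed at 0 in each library. None of the 25 USP17-like copies passed, 14 were listed at 0 in each library, and the highest value among them was 0.0920 FPKM. Their copies are so alike that reads could not be placed between them with certainty. The same doubt may hold in part for USP9X and USP9Y, USP22 and USP27X, USP12 and USP46, and USP32 with USP6 and USP32P3. Sharing of reads between these genes was not measured.

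The tested members spanned 1.43 FPKM (USP27X) to 48.3 FPKM (USP10) in their mean over the libraries, with a median of 7.36 FPKM against 9.45 FPKM for all 11088 tested genes. USP10, which removes ubiquitin from p53 and binds the stress granule protein G3BP1, stood highest at 48.0 and 51.1 FPKM in Control and 46.5 and 47.8 FPKM with F. nucleatum. USP39, a splicing factor that lacks protease activity, followed at 45.3 and 45.4 FPKM in Control and 44.6 and 43.5 FPKM with F. nucleatum. The libraries of these 2 genes did not overlap, so their order was larger than the spread between libraries. USP5, which takes apart unanchored ubiquitin chains, was at 35.6 and 37.2 FPKM in Control and 36.1 and 37.3 FPKM with F. nucleatum. USP22, the ubiquitin protease of the SAGA coactivator, was at 31.8 and 33.3 FPKM against 34.6 and 34.5 FPKM, and USP7, which acts on MDM2 and p53, at 32.5 and 31.2 FPKM against 31.6 and 30.9 FPKM. The ranges of USP22 and USP7 overlapped. USP36, a nucleolar protease, was at 25.7 and 27.4 FPKM in Control and 24.4 and 26.1 FPKM with F. nucleatum.

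**Figure D1:**
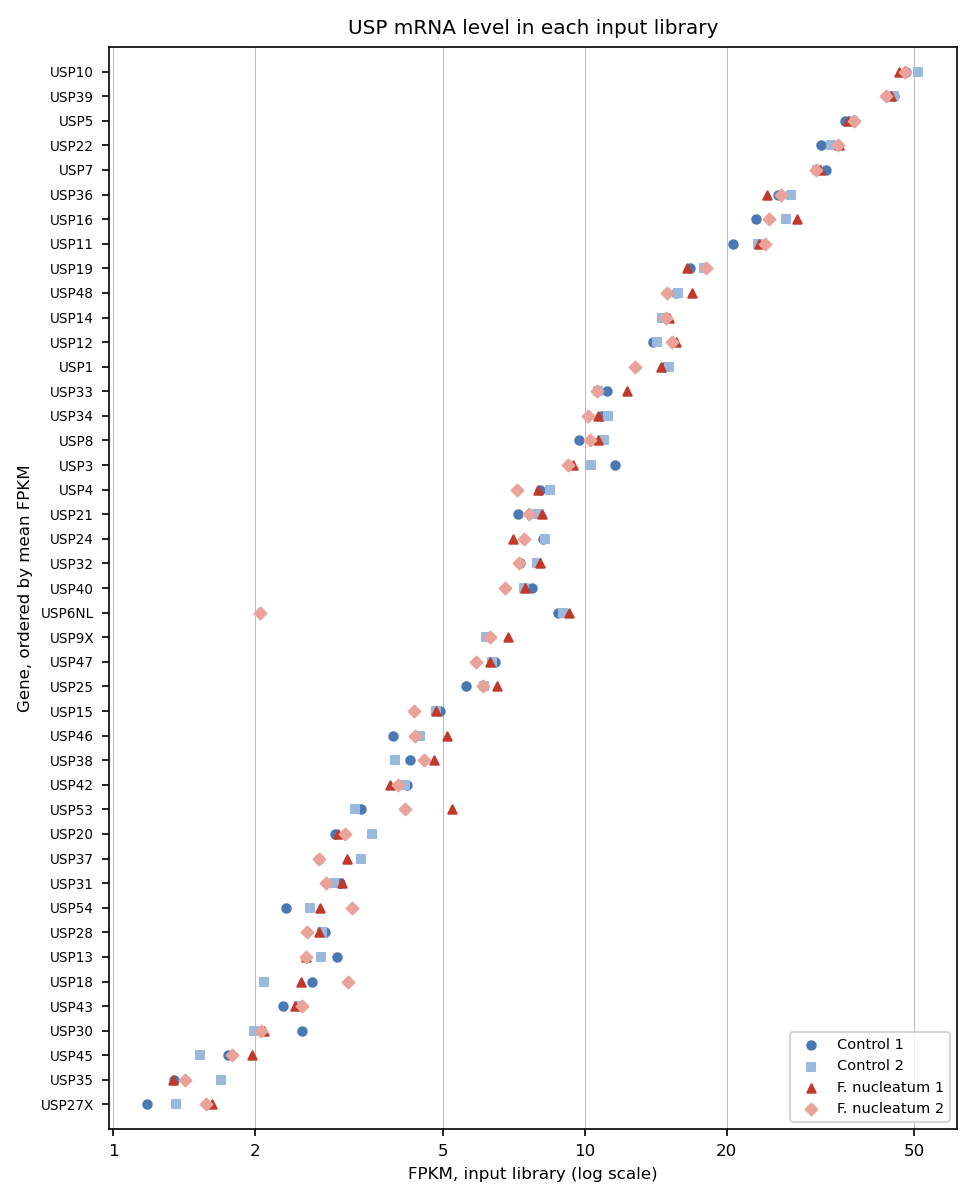
FPKM of the 43 tested members in the 4 input libraries on a log axis, 1 point per library, with genes ordered by their mean. The points of a gene lie close together except for USP6NL, whose F. nucleatum 2 value of 2.05 FPKM stands apart from 8.77, 9.02 and 9.29 FPKM, and the family runs from USP27X at 1.43 FPKM to USP10 at 48.3 FPKM.

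Treatment with F. nucleatum was compared with Control by limma on log2(FPKM + 1) across the 11088 tested genes. No member passed a Benjamini-Hochberg adjusted p of 0.05 from limma, with 0 higher and 0 lower, where 0.667% of all tested genes were called higher, 0.135% lower and 0.803% in either direction. The unadjusted p was under 0.05 for 1 member that was higher (USP53) and 1 that was lower (USP3), against 7.04% and 6.45% of all tested genes. The median log2 fold change of the members was -0.0033, beside 0.01 for all tested genes, and 41 of the 43 members (95.3%) lay within 0.25 of 0, as did 88.0% of all tested genes. The libraries of the 2 treatments did not overlap in 10 members with F. nucleatum higher and in 12 with it lower, where 26.1% and 21.1% of all tested genes had such a pattern. With 2 libraries in each group, the smallest p of a two-sided exact permutation test is 0.333.

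USP53, a protein of tight junctions, had the largest increase, from 3.36 and 3.26 FPKM in Control to 5.24 and 4.16 FPKM with F. nucleatum. Both treated libraries lay above both Control libraries, and the treated pair differed between themselves by more than the Control pair. Its log2 fold change of 0.40 ± 0.115 (SE), with limits of 0.11 and 0.68 at 95% confidence, had an unadjusted p of 0.0156 and an adjusted p of 0.277 from limma. Without F. nucleatum 1 it was 0.26, with an unadjusted p of 0.0777 from limma.

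USP3, which removes ubiquitin from histone H2A, was at 11.6 and 10.3 FPKM in Control and 9.46 and 9.21 FPKM with F. nucleatum. Both treated libraries lay below both Control libraries. Its log2 fold change of -0.21 ± 0.0839 (SE), with limits of -0.42 and -0.00076 at 95% confidence, had an unadjusted p of 0.0494 and an adjusted p of 0.368 from limma. With each library kept, the unadjusted p from limma was 0.0568 with no filter on low values, 0.0506 without trend and 0.0525 with the replicate block, each above 0.05. With 1 library left out, the log2 fold change was -0.13 without Control 1 and -0.29 without Control 2. It was -0.23 without F. nucleatum 1 and -0.19 without F. nucleatum 2. Each of these fits leaves a lone library in 1 group, and the unadjusted call did not hold in all of them.

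USP6NL had the lowest log2 fold change of the 43, and 1 library set its value. It was at 8.77 and 9.02 FPKM in Control, 9.29 FPKM in F. nucleatum 1 and 2.05 FPKM in F. nucleatum 2. The groups overlapped, and the log2 fold change was -0.82 ± 0.532 (SE) with an adjusted p of 0.529 from limma. It was 0.06 without F. nucleatum 2 and -1.70 without F. nucleatum 1, with an adjusted p of 0.0404 from limma. That last fit leaves F. nucleatum 2 as the lone treated library and assumes that it varies like the Control pair. The m6A region of USP6NL was present in each of the 4 lists, with Control p-values of 6.3e-50 and 5e-58 and F. nucleatum p-values of 2.5e-73 and 2e-49. What set the F. nucleatum 2 value apart was not tested.

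**Figure D2:**
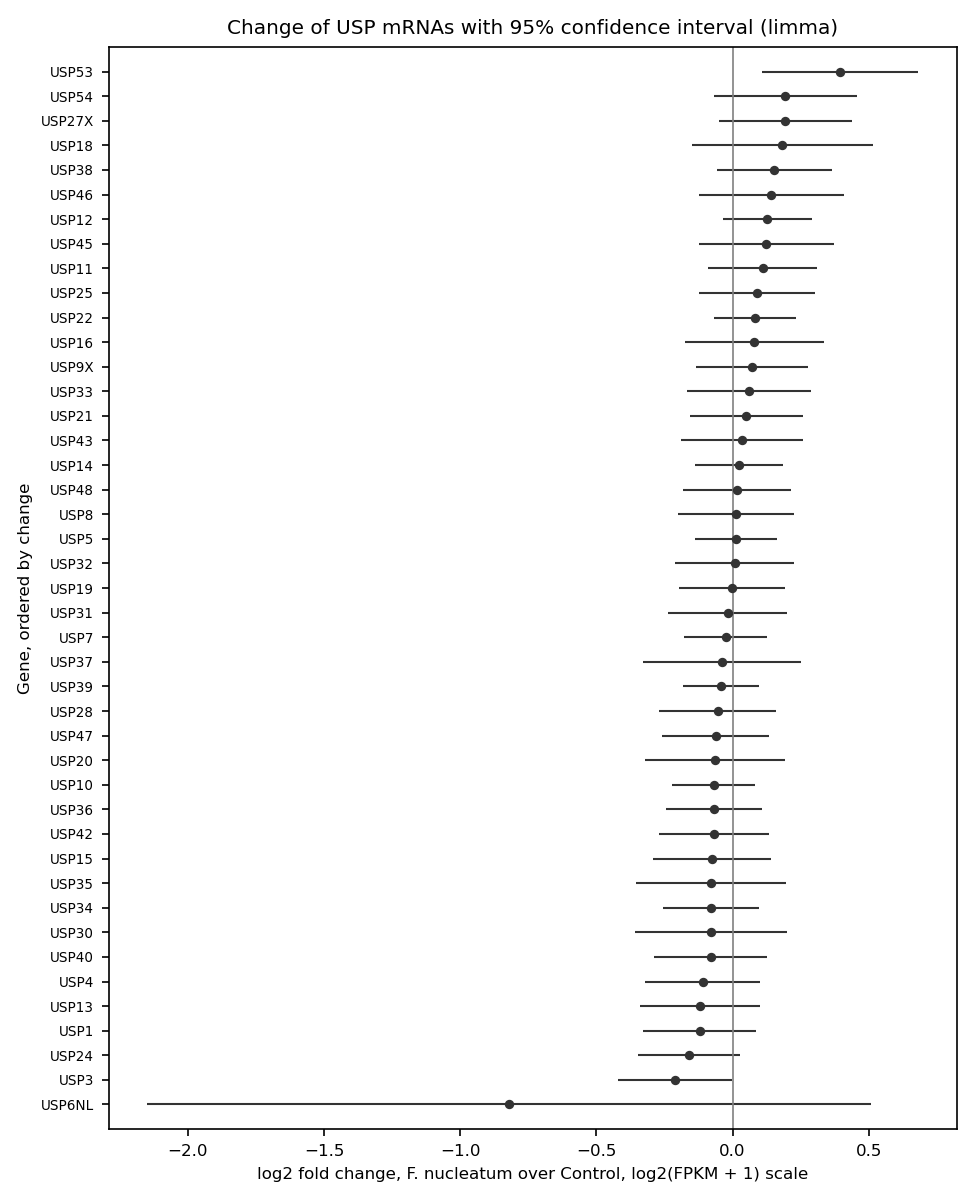
Log2 fold change of each tested member, F. nucleatum over Control, on the log2(FPKM + 1) scale, with points for the limma estimate and bars for its 95% confidence interval. The intervals of USP53 (0.11 to 0.68) and USP3 (-0.42 to -0.00076) leave out 0, those of the other 41 members include it, and USP6NL has the widest interval, from -2.15 to 0.51.

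For m6A, the 4 peak lists, which set an IP library against the input of its own replicate, held 80 and 86 peaks named for members in Control and 89 and 78 with F. nucleatum, out of 17198, 18149, 18365 and 17039 peaks. The share of all peaks was 0.465% and 0.474% in Control and 0.485% and 0.458% with F. nucleatum, so the treatments overlapped. Peaks that touched on the same strand were merged across lists into 95 union regions in 48 members, out of 22001 regions in all. The lists hold a score for each peak, here read as the p-value of IP against input, before correction, from the peak caller. It becomes smaller with read depth and with the length and abundance of the methylated RNA, so it ranks peaks and does not measure the methylated fraction.

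A peak was present in all 4 lists for 56 of the 95 regions (58.9%), where 51.5% of all regions were. Among the other 39, 3 were in both Control lists and no F. nucleatum list (lost, 3.16%), 1 was in both F. nucleatum lists and no Control list (gained, 1.05%), and 35 were in 1 to 3 lists without such a split. Of all regions, 2.64% were lost and 2.38% gained. A peak in 1 list alone was found for 18 member regions (18.9%), against 25.6% of the regions of other genes. Of the 56 member regions in all 4 lists, the p-values did not overlap between treatments in 10 with smaller values under F. nucleatum and in 10 with larger ones, as in 15.7% and 18.9% of the 11341 regions found in each list. The remaining 36 overlapped.

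Of the 43 tested members, 40 (93.0%) had a region and 35 (81.4%) had 1 in all 4 lists, beside 83.9% and 67.2% of all tested genes. There were 12 members with 1 region, 15 with 2, 8 with 3 and 5 with 4, and the median was 2 for members and 1 for other tested genes. USP transcripts were also longer, with a median canonical length of 5090 nt against 3229 nt. Per kilobase of transcript, members had 0.325 regions and other genes 0.444, and regions covered 18.0% of the nucleotides of member transcripts against 21.7%. Members had more regions per gene and fewer per kilobase than other tested genes.

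The 5 members with 4 regions were USP8, USP31, USP34, USP35 and USP38. USP34, which acts on the Wnt scaffold axin, had regions from -8740 to 229 nt around its stop codon, 3 of them in all 4 lists. Its region over the stop codon (chr2:61415010-61416110, 901 nt in 2 exon blocks) had Control p-values of 1e-102 and 1e-108 and F. nucleatum p-values of 7.9e-95 and 6.3e-64. USP38 had 3 regions in all 4 lists and another, in the 5′UTR, in Control 2 only (p-value of 0.00025). USP31 likewise had 3 regions in all 4 lists, the farthest at 3105 to 3914 nt past the stop codon. USP8, which sorts endocytosed receptors, and USP35 had 2 regions each in all 4 lists, and those of USP35 were weak, with p-values of 2.3e-05 to 0.0043.

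On the canonical coding transcript, 83 of the 95 regions could be placed by their midpoint. The CDS held 42 of them (50.6%), the 3′UTR 26 (31.3%), the stop codon with 100 nt on either side 11 (13.3%) and the 5′UTR 4 (4.82%). For other genes the shares of 18144 regions were 44.9%, 34.2%, 15.9% and 4.98%. Among regions in all 4 lists, the CDS held 28 of 49 member regions (57.1%) and 43.9% of those of other genes, and the 3′UTR held 13 (26.5%) and 34.5%. A region reached across the stop codon itself in 27 of the 83 (32.5%), as in 32.2% of the regions of other genes, and in 25 of the 49 in all 4 lists (51.0%), as in 51.0%. Regions of 1 gene share a transcript and are not replicates, and these shares were not tested.

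**Figure D3:**
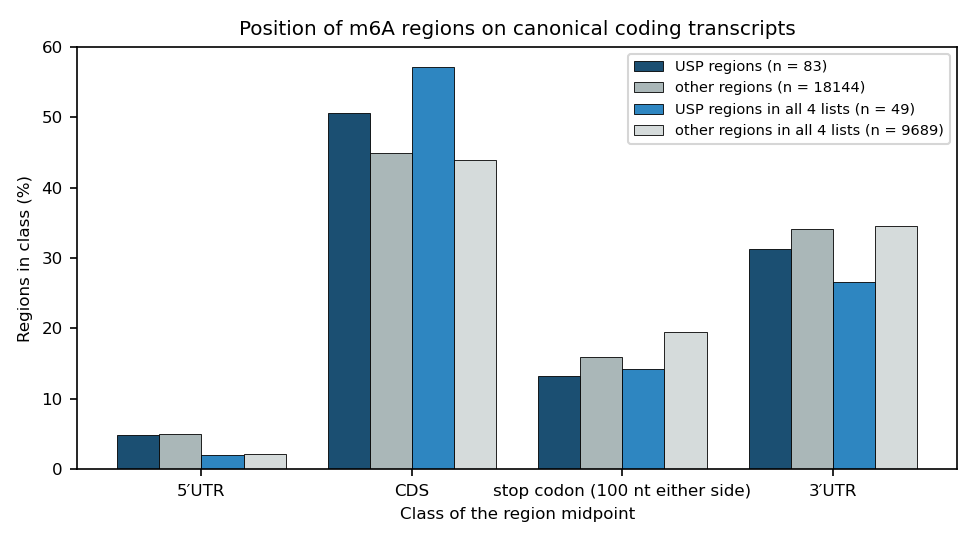
Share of m6A regions by the class of their midpoint on the canonical coding transcript (in percent), for member regions and the regions of other genes, in any list or in all 4 lists. The CDS is the largest class in each set, at 50.6% and 57.1% of member regions and 44.9% and 43.9% of other regions.

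GGAC, searched on the RNA strand only, was present in 70 of the 95 regions (73.7%), against 72.8% of the regions of other genes. The wider DRACH (D is any base but C, R is a purine, H is any base but G), which overlaps with GGAC, was present in 94.7% and 94.8%. Member regions were lower in GC content, with a median of 46.0% against 51.6%, and slightly longer, with a median of 361 nt against 324 nt. GGAC occurred 4.44 times per kilobase in member regions and 5.12 times in others. Among the 56 regions in all 4 lists, 49 (87.5%) held GGAC, as did 90.0% of such regions elsewhere. The 7 without it were in USP14, USP16, USP25, USP30, USP34, USP35 and the antisense gene USP3-AS1, and the USP25 region was among the strongest of the family, with Control p-values of 3.2e-82 and 2e-77 and F. nucleatum p-values of 1.3e-73 and 1.3e-55.

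The strongest region of the family was in USP10 (chr16:84733555-84779230, plus strand, 1406 nt in 5 exon blocks, with 7 GGAC). The p-values were 1e-164 and 1e-274 for Control and 1e-252 and 1e-180 with F. nucleatum, and it ranked 446, 210, 252 and 309 among the 15100, 16631, 16678 and 15025 regions of the lists. Of its bases, 87.8% lay on exons of the canonical transcript and 81.3% in the CDS. Next was the USP3 region over the end of the CDS and the 3′UTR (chr15:63880926-63883632, 930 nt), with Control p-values of 1e-125 and 1e-131 and F. nucleatum p-values of 1e-130 and 2e-89. The USP22 region, from 99 nt before the stop codon to 681 nt past it, had Control p-values of 2e-88 and 1e-132 and F. nucleatum p-values of 1e-143 and 3.2e-92. In each of these 3 genes the p-values of the treatments overlapped.

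Among proteasome-associated and chain-recycling members, USP14 (which sits on the proteasome and trims its substrates), USP5 and its paralogue USP13, 3 of 3 were tested and none passed the unadjusted threshold. Their log2 fold changes ran from -0.12 (USP13) to 0.02 (USP14). Each had a region in all 4 lists. That of USP5 reached from -129 to 556 nt around the stop codon, with 5 GGAC and Control p-values of 2.5e-19 and 7.9e-15 and F. nucleatum p-values of 1.6e-23 and 7.9e-18.

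Among the 8 histone and SAGA members, 5 were tested and USP3 alone passed the unadjusted threshold. USP16, another histone H2A protease, was at 23.1 and 26.8 FPKM in Control and 28.3 and 24.6 FPKM with F. nucleatum, and the groups overlapped. Its longest region held 1 GGAC in 1073 nt of CDS, with Control p-values of 1.3e-83 and 1.6e-87 and F. nucleatum p-values of 6.3e-69 and 5e-65. USP27X, a paralogue of USP22, was at 1.18 and 1.36 FPKM in Control and 1.62 and 1.57 FPKM with F. nucleatum, with a log2 fold change of 0.19 and an unadjusted p that missed the threshold. At this low level it had 2 regions in all 4 lists, the longer one (1171 nt, 8 GGAC) with Control p-values of 2.5e-18 and 2.5e-12 and F. nucleatum p-values of 5e-15 and 1.3e-13.

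The 3 partners of WDR48, a subunit that activates them, were USP1, USP12 and USP46. Their log2 fold changes were -0.12, 0.13 and 0.14, and none passed the unadjusted threshold. USP1, which acts on FANCD2 and PCNA in DNA repair, had a region of 1770 nt within its CDS, with 9 GGAC and Control p-values of 4e-67 and 5e-85 and F. nucleatum p-values of 2.5e-94 and 4e-95. Both treated lists gave smaller p-values than both Control lists at this region. The USP12 region over the stop codon was in all 4 lists (peak-caller p-values of 7.6e-05 and 6.3e-12 in Control, 1.3e-13 and 1.3e-16 with F. nucleatum). The one at the same place in the paralogue USP46 was in 3 lists, with no peak in Control 1 (p-values of 0.00035 in Control 2, 0.00017 and 5.5e-05 with F. nucleatum).

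Of the 4 p53 and MDM2 members, USP7, USP10 and USP42 were tested, with log2 fold changes of -0.03, -0.07 and -0.07, and USP2 was under 0.8 FPKM in each library. The USP7 region over its stop codon, found in each list, had Control p-values of 2.5e-26 and 1.3e-16 and F. nucleatum p-values of 3.2e-18 and 3.2e-13. USP42, at 4.20 and 4.17 FPKM in Control and 3.86 and 4.02 FPKM with F. nucleatum, had the region richest in GGAC by number, with 20 in 2126 nt (chr7:6193578-6200716). The p-values were 1.6e-28 and 2e-36 for Control and 4e-29 and 4e-26 with F. nucleatum.

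The 5 members tied to innate immunity and NF-kB signalling were all tested and none passed the unadjusted threshold. USP18, which removes the interferon-induced modifier ISG15, was at 2.65 and 2.095 FPKM in Control and 2.50 and 3.15 FPKM with F. nucleatum, with a log2 fold change of 0.18 ± 0.133 (SE), and the groups overlapped. USP25 had a log2 fold change of 0.09, USP11 of 0.11, USP15 of -0.08 and USP4 of -0.11. The USP15 region at the end of its CDS, found in each list, had Control p-values of 3.2e-52 and 2e-73 and F. nucleatum p-values of 1.6e-66 and 6.3e-53. The USP4 region over its stop codon, likewise in each list, had Control p-values of 5e-51 and 2.5e-53 and F. nucleatum p-values of 2e-39 and 1e-37, larger in both treated lists than in both Control lists.

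In the group of endosome, endoplasmic reticulum and mitochondria members, USP8, USP19, USP30 and USP35 were tested and none passed the unadjusted threshold, with log2 fold changes from -0.08 to 0.01. The longest USP8 region (661 nt of CDS) had Control p-values of 2e-63 and 5e-62 and F. nucleatum p-values of 2e-55 and 1e-40. USP30, a protease of the outer mitochondrial membrane that counters mitophagy, had 3 regions, of which only the one at its stop codon was in all 4 lists, with p-values from 4.1e-06 to 0.0029. USP19, anchored in the endoplasmic reticulum, had 1 region, just past its stop codon, in every list but F. nucleatum 2.

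The group of cell cycle, centrosome and MYC members had 6 tested of 9, and none passed the unadjusted threshold, with log2 fold changes from -0.07 to 0.07. USP9X, an X-linked protease with many substrates, had a region over its stop codon with Control p-values of 1.3e-18 and 1.6e-17 and F. nucleatum p-values of 6.3e-31 and 2e-32, smaller in both treated lists. Its longer CDS region (720 nt) had Control p-values of 2e-36 and 7.9e-64 and F. nucleatum p-values of 1e-60 and 1.6e-41, which overlapped. USP36 had a CDS region of 1406 nt with Control p-values of 1e-59 and 7.9e-69 and F. nucleatum p-values of 5e-51 and 5e-32, larger in both treated lists. USP20 and USP33, a pair of paralogues, had 1 region each, in 4 and 3 lists.

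The Wnt and hedgehog group, USP34, USP47 and USP48, held no member past the unadjusted threshold, and their log2 fold changes were -0.08, -0.06 and 0.02. USP47 had a region of 927 nt in its CDS with Control p-values of 5e-96 and 7.9e-88 and F. nucleatum p-values of 7.9e-97 and 7.9e-80. Its region over the stop codon had Control p-values of 1e-100 and 1e-74 and F. nucleatum p-values of 2e-93 and 5e-86. Both overlapped between treatments. USP47 was at 6.44 and 6.35 FPKM in Control and 6.30 and 5.87 FPKM with F. nucleatum, a level near the middle of the family.

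A group of USP39, USP53 and USP54, members classed as inactive or long doubted as proteases, had log2 fold changes of -0.04, 0.40 and 0.19, and USP53 alone passed the unadjusted threshold. USP53 had 1 region of 1979 nt in its CDS in each list, with 7 GGAC and Control p-values of 1.6e-24 and 2e-30 and F. nucleatum p-values of 5e-40 and 1.3e-27, which overlapped. USP54 was at 2.33 and 2.62 FPKM in Control and 2.74 and 3.22 FPKM with F. nucleatum, and had 2 regions in all 4 lists. The remaining 7 tested members (USP24, USP31, USP32, USP38, USP40, USP43 and USP45) had log2 fold changes from -0.16 (USP24) to 0.15 (USP38), with none past the unadjusted threshold, and each had a region in all 4 lists.

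The 3 tested members with no region in any list were USP39, USP18 and USP28. USP28, which stabilises MYC, was at 2.81 and 2.78 FPKM in Control and 2.74 and 2.57 FPKM with F. nucleatum. Of the 1295 other tested genes within 1.5-fold of the FPKM of USP39, 15.1% also lacked a region, and for USP18 and USP28 the shares were 17.8% and 17.9%. With the canonical length held within 1.5-fold as well, the shares were 13.7%, 24.7% and 13.1%. With the depth of the IP libraries unknown, no limit of detection could be set.

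The 4 regions found in 1 treatment only were weak. The lost region of USP11 (chrX:47092374-47092493, plus strand, 120 nt, 1 GGAC) lay on annotated exons of the gene, with 71.7% of its bases on canonical exons. Its Control p-values were 0.00026 and 4.8e-05. USP11 itself was at 20.6 and 23.3 FPKM in Control and 23.4 and 24.1 FPKM with F. nucleatum. Why the peak was missing was not tested. The shown USP11 motif window is at chrX:47092427-47092447.

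The lost region of USP21, a histone H2A protease, lay in the 5′UTR (chr1:161129314-161129462, plus strand, 149 nt, no GGAC) and had a GC content of 75.8%, with p-values of 0.0014 and 0.0011. USP21 was at 7.24 and 7.92 FPKM in Control and 8.13 and 7.64 FPKM with F. nucleatum, and its second region, in the CDS, was in all 4 lists. The lost region of USP45 (chr6:99906937-99907147, minus strand, 211 nt, no GGAC) lay inside the gene on no annotated exon of it, thus in an intron, with p-values of 0.00029 and 0.0035. USP45 was at 1.75 and 1.53 FPKM in Control and 1.97 and 1.79 FPKM with F. nucleatum.

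The gained region was in USP15 (chr12:62698774-62698954, plus strand, 181 nt, 1 GGAC) and also lay on no annotated exon of the gene, in an intron, with p-values of 0.00015 and 0.0016 in the F. nucleatum lists. The shown USP15 motif window is at chr12:62698927-62698947. USP15 was at 4.94 and 4.84 FPKM in Control and 4.83 and 4.34 FPKM with F. nucleatum. None of the peaks in these 4 regions had a p-value at or below 1e-05, and with that limit no member region was lost or gained.

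The noncoding members had 1 region each. USP3-AS1 (chr15:63880918-63886927, minus strand, 416 nt) and USP46-AS1 had theirs in all 4 lists, USP2-AS1 in 3 and USP27X-AS1 in 2. The regions named for USP46-AS1 and USP27X-AS1 lay on exons of the divergent genes that GENCODE 44 calls USP46-DT and USP27X-DT. The USP3-AS1 region shared 157 nt with the USP3 region on the opposite strand, which was 37.7% of its own length. The p-values were 0.00022 and 0.00023 for Control and 0.00087 and 0.0023 with F. nucleatum, while those of USP3 were all at or below 2e-89. Whether strand was used in peak calling was not given in the sources used here, and without strand the reads of such a pair cannot be told apart. The pseudogene USP32P3 had a region in all 4 lists (p-values of 0.00052 and 3.8e-06 in Control, 2.2e-05 and 0.00012 with F. nucleatum), and the USP32 region that contains the matching window had Control p-values of 1.3e-63 and 7.9e-69 and F. nucleatum p-values of 7.9e-71 and 3.2e-44.

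Other genes of the pathway were read from a list of deubiquitinases and related proteins without a USP symbol, here called other deubiquitinases. A further list held subunits that USP proteins bind. Not every gene of the first list is an active deubiquitinase or lies outside the USP family by its domain. Of 45 names of other deubiquitinases, 34 were tested, with a median log2 fold change of -0.00056. At an adjusted p under 0.05 from limma 1 was higher and 0 lower, beside 0.667% and 0.135% of all tested genes. The gene called higher was TNFAIP3 (A20), which restrains NF-kB signalling. TNFAIP3 rose from 0.816 and 0.838 FPKM in Control to 3.93 and 4.89 FPKM with F. nucleatum, with an adjusted p of 0.00852 from limma. Its log2 fold change was 1.56 ± 0.116 (SE) on the log2(FPKM + 1) scale, which understates the rise of a gene this low in Control. Both Control values were under 1 FPKM, so TNFAIP3 passed the filter on low values only through the treated libraries, in which it was high. OTUD5 and STAMBPL1 passed only the unadjusted threshold (log2 fold changes of 0.45 and 0.33, unadjusted p of 0.0402 and 0.0332 from limma). That made 3 of the 34 higher and 0 lower there, beside 7.04% and 6.45% of all tested genes. Of the 17 partner subunits, all tested, 0 were higher and 0 lower at the adjusted threshold in limma, with a median log2 fold change of 0.02. At the unadjusted threshold 0 of the 17 were higher and 2 lower, beside 7.04% and 6.45% of all tested genes, and the 2 were HGS (the endosomal partner of STAM) at -0.28 and ADRM1 (a ubiquitin receptor of the proteasome) at -0.19, with adjusted p of 0.164 and 0.246 from limma. A region in all 4 lists was found for 26 of the 34 other deubiquitinases (76.5%) and 14 of the 17 partner subunits (82.4%). The share was 81.4% for the USP members and 67.2% for all tested genes, with transcript length not taken into account.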

How the data were processed

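HCT116 cells were sequenced as 4 input and 4 IP libraries, with 2 biological replicates per group according to the study's methods. Per the labels, the authors used Trim Galore 0.3.3, HISAT2 2.1.0 on hg19 and StringTie. The deposited FPKM values came from the input libraries and are no counts, so the count model of the study could not be used. The deposited peak lists hold 1 score per peak, read as the authors' p-value. The methods name MACS2, while the exon-block layout differs from its usual output, so the caller and the correction of the p-value are uncertain.

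Members and gene lists were chosen with earlier results of these data known. Named members were those past either threshold, the 6 highest by FPKM, those with a lost or gained region, those with most regions, those with no region, and others by level or range. USP6NL, the members detailed within role groups and the printed windows were chosen after their values were seen. The 11088 genes averaging 1 FPKM or more were tested with limma 3.58.1 in R 4.3.3 (trend, log2(FPKM + 1), which understates changes of low genes), with Benjamini-Hochberg adjustment. On simulated data for the same comparison, 200 of 11088 genes were changed by 1 on the log2 scale and 100% were recovered, with 8.68% false calls. The changed genes excluded the lowest ones, and each gene had a spread averaged over genes of like level. Smaller changes and genes with an outlying library were not simulated. Samples were not treated as paired by replicate number.

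Relative depth was the most frequent FPKM ratio of low genes in a pair of libraries, shared by 11 to 23 genes. No pair of libraries was identical. Peaks sharing at least 1 bp of exon on the same strand were merged, placed on a GENCODE release 44 canonical transcript when at least 90.0% of bases lay on it, and given the midpoint class. Region shares and counts were not tested. Python 3.11.15, NumPy 2.4.6, SciPy 1.17.1 and pysam 0.24.0 were used. Alternatives were other pseudocounts, filters, normalizations, a replicate block, peak limits, overlaps, gene assignment and leaving out each replicate.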

Additional observations from a re-analysis of the deposited data

How the results depend on the processing

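No member was called at an adjusted p under 0.05 by limma in any alternative except without F. nucleatum 1, where USP6NL was lower (0 to 1 lower over the libraries left out) with a lone treated library assumed to vary like the Control pair. Members higher at an unadjusted p numbered 2 without trend and 0 to 2 with 1 library left out. Members lower at an unadjusted p numbered 0 with no filter on low values, 0 without trend and 0 to 1 with 1 library left out. The deviations of Control 1 and F. nucleatum 1 from their group means correlated at 0.0243 over the tested genes. With 2 libraries in each group this value cannot exclude a batch shared by replicate number. With the replicate block 1 member was higher and 0 lower at an unadjusted p, and 75 of all genes were higher and 15 lower at an adjusted p. The median log2 fold change of members ranged from -0.0421 to 0.0336 with 1 library left out.

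Single values changed sign. Those other than USP6NL were near 0 in the main fit, while the sign of USP6NL turned on the F. nucleatum 2 library. USP8 was at -0.0118 under GC correction, at -0.0118 under the replicate block with GC correction and at -0.0073 under quantile normalization. With 1 library left out, log2 fold changes ranged from -0.0067 to 0.11 for USP21, -0.0575 to 0.0232 for USP31, -0.18 to 0.0222 for USP35, -0.0171 to 0.0416 for USP5, -0.0557 to 0.0043 for USP7, -0.067 to 0.0943 for USP8 and -1.70 to 0.0569 for USP6NL. Of the other alternatives for named members, 206 kept direction and their side of the adjusted threshold. The unadjusted calls of USP3 and USP53 ended under some of these, including USP3 with no filter on low values (0.0568), without trend (0.0506) and with the replicate block (0.0525), and USP53 without F. nucleatum 1 (0.0777).

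Lost regions numbered 0 and gained regions 0 when peaks with p at or below 1e-05 alone were used, where the members held 60 regions in place of 95. Gained regions numbered 2 with a reciprocal overlap of 50% and 0 when genes were assigned by exon coordinates, which leave out the intronic USP15 region. Lost regions numbered 2 in place of 3 under either choice, and exon coordinates also leave out the intronic USP45 region. With 1 list left out there were 4 to 9 lost and 3 to 8 gained regions, where by construction fewer lists had to hold or lack a peak. Classed by the start of the region, the 3′UTR share was 15.7% for members and 22.6% for other genes. The stop codon share by start was 15.7% for members and 9.67% for others. By midpoint it was 13.3% and 15.9%, so the order of the 2 sets depended on the choice. GGAC was in 87.5% of regions in all 4 lists, and the wider DRACH in 94.7% of all. A region in all 4 lists was found for 67.4% of tested members at the stricter p, 76.7% with reciprocal overlap and 81.4% to 86.0% with 1 list left out. The IP depth was unknown, so what it limits could not be measured, and 18 of the 95 regions were in 1 list only.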
